A study of Macaca mulatta with 24 samples.

Results

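The HOX and GATA transcription factors are used as marks of where an adipose depot lies in the body, and their transcripts were followed here in omental white adipose tissue (WAT), a visceral fat depot, of 24 female rhesus macaques. The members are the rows of the deposited table of raw counts whose symbol is HOXA, HOXB, HOXC or HOXD with a number, or GATA2 to GATA6. There were 21 such rows among 32386, namely 16 HOX rows (5 HOXA, 2 HOXB, 4 HOXC and 5 HOXD) and 5 GATA rows. A further 22 HOX symbols of the name table had no matched row and were not analysed here. The animals fell into 4 groups of 6. Controls (*C*) received cholesterol implants and monkey chow, *T* animals received testosterone implants and chow, *WSD* animals received cholesterol implants and a high-fat Western-style diet, and *T* + *WSD* animals received testosterone implants and that diet. Treatment lasted 3 years, the labels give an age of 4 years for every animal (the study's methods give a higher one), and all animals were young females. The study picked the 6 animals of each group as representative of a larger group in fat mass and insulin, which limits them as a random sample of it. The question was how levels of these factors, and their spread between animals, differ with testosterone, diet or both.

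HOX genes lie in 4 clusters, and their order along a cluster follows the order in which they are used from head to tail in the embryo, with low numbers toward the front and high numbers toward the rear. Adult fat depots keep part of this code, so that visceral and subcutaneous fat, and fat of the upper and lower body, differ in the HOX genes they express. GATA4, GATA5 and GATA6 are zinc-finger factors of the endoderm, the heart and the lining of body cavities, while GATA2 and GATA3 act in blood, endothelium and preadipocytes, where they hold back adipocyte differentiation.

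Between 6899185 and 28270776 counts were assigned to genes per library, with a median of 20630512.5. Levels are given as counts per 1000000 counts (CPM) after TMM scaling, so a gene can be compared between animals but not with another gene, as lengths were not used. In 8 libraries, 2 in each group, a single gene (ENSMMUG00000038258) held 9.92 to 54.7% of all counts, against 0.879 to 2.51% in the other 16. These 8 are called the library batch, a name for this count pattern and not for a stated date or run. The adipocyte list (8 of 8 rows tested) was at 0 in no library, with summed levels from 2629 CPM in a *C* animal to 16250 CPM in a *T* + *WSD* animal. The mesothelial list, for the cells that line the omentum, moved with treatment. Its summed level was 3068 to 40515 CPM in *C* (median 8135), 3141 to 18369 in *T* (median 4245), 922 to 6521 in *WSD* (median 4864) and 374 to 3406 in *T* + *WSD* (median 1205). Of its 14 rows, 10 were lower and 0 higher in *T* + *WSD* than in *C* by edgeR's quasi-likelihood test, where a call needed an adjusted p below 0.05 together with a fold change above 1.5. By that rule 5.29% of all genes were lower. No row of the mesothelial list was at 0 in every library. In bulk tissue, fewer cells of a type and less RNA per cell cannot be told apart.

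Of the 21 members, 14 passed the filter on low counts and were tested. Results are given for 13 of them, 9 HOX and 4 GATA. These HOX genes were HOXA4, HOXA7, HOXA9, HOXB8, HOXC6, HOXC10, HOXD8, HOXD9 and HOXD10, and these GATA genes were GATA2, GATA3, GATA5 and GATA6. The other 7 were GATA4, HOXA13, HOXB1, HOXC11, HOXC12, HOXD11 and HOXD12. HOXC12 and HOXD12, rear-end genes of their clusters, had 0 counts in all 24 libraries. A count of 0 allows up to 3 counts per library, which is 0.106 to 0.435 CPM before TMM scaling at these depths, and it covers counting error only. HOXB1, a gene of the hindbrain end of its cluster, and HOXC11 each had 2 counts in all, 1 in each of 2 libraries.

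The libraries of 3 animals stood apart in these genes, namely *C* replicates 1 and 4 and *T* replicate 18. The clearest case was HOXA9 (ENSMMUG00000013459), a gene from the rear part of the HOXA cluster. The gene name table calls this row HOXA9 and the study's own tables call it HOXA10, a neighbour of HOXA9 in the RefSeq order of T2T-MMU8v2.0, so its counts may hold either gene. Its count was 808 in *C* replicate 1, 993 in *C* replicate 4 and 1181 in *T* replicate 18, which is 45.4, 41.0 and 36.9 CPM. The other 21 animals had 2 to 50 counts, with a lowest level of 0.109 CPM, a median of 0.673 and a highest of 2.46. The lowest of the 3 was therefore 14.99 times the highest of the other 21. *C* replicate 1 was in the library batch and the other two were outside it, and their libraries held 17538167, 22040690 and 28270776 counts in the same order.

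HOXA13, the last gene of the HOXA cluster and a factor of the hindgut, the urogenital tract and the distal limb, marked the same animals. It had 38 counts in *C* replicate 1, 31 in *C* replicate 4 and 59 in *T* replicate 18. In the other 21 animals it had 0 or 1 count. HOXD11, from the rear part of the HOXD cluster, had 13 counts in *T* replicate 18, 3 in *C* replicate 1, 0 in *C* replicate 4 and at most 1 in any other animal. In the RefSeq annotation HOXD11 overlaps HOXD10, and HOXA4 and HOXA7 each overlap HOXA3. HOXC6, HOXC10, HOXC11 and HOXC12 each overlap ATP5MC2, a subunit gene of the mitochondrial ATP synthase. Several members, all 5 GATA genes among them, overlap entries named only by a LOC number. The RefSeq annotation is of another assembly than the one the reads were aligned to, so overlap of the counted gene models was not checked. The strand setting of the counting is not given in the sources used here. Whether any of these genes share counts was therefore not tested. HOXD8 was 5.62 CPM in *C* replicate 1, 5.12 in *C* replicate 4 and 3.88 in *T* replicate 18, and 0.436 to 1.58 CPM in the other 21 (median 1.27). These 3 animals were picked by their HOXA9 level, so their place above all others in HOXA9 follows from that choice. HOXA13 and HOXD8 also put them above all others, with no overlap. The same 3 animals held the 3 highest values in 195 of the 15207 tested genes (1.28%), HOXA9 and HOXD8 among them.

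Other HOX genes leaned the same way with overlap. HOXD9 was 2.84 CPM or more in the 3 animals, where the other 21 reached 3.24. HOXC6, a trunk gene, was 0.660 CPM or more in them, and the other 21 reached 0.848. HOXB8, a trunk gene of the HOXB cluster, went in the opposite direction, since *C* replicate 1 ranked 24th, *T* replicate 18 ranked 23rd and *C* replicate 4 ranked 21st of 24 from the highest. HOXA4 and HOXA7 lie in the same cluster as HOXA9 and were not high in these animals as a set. HOXA7 did not mark them, at ranks 6, 15 and 7 in *C* replicate 1, *C* replicate 4 and *T* replicate 18. HOXA4 leaned low, at ranks 19, 20 and 21, with none of the 3 below all other 21 animals.

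**Figure D1:**
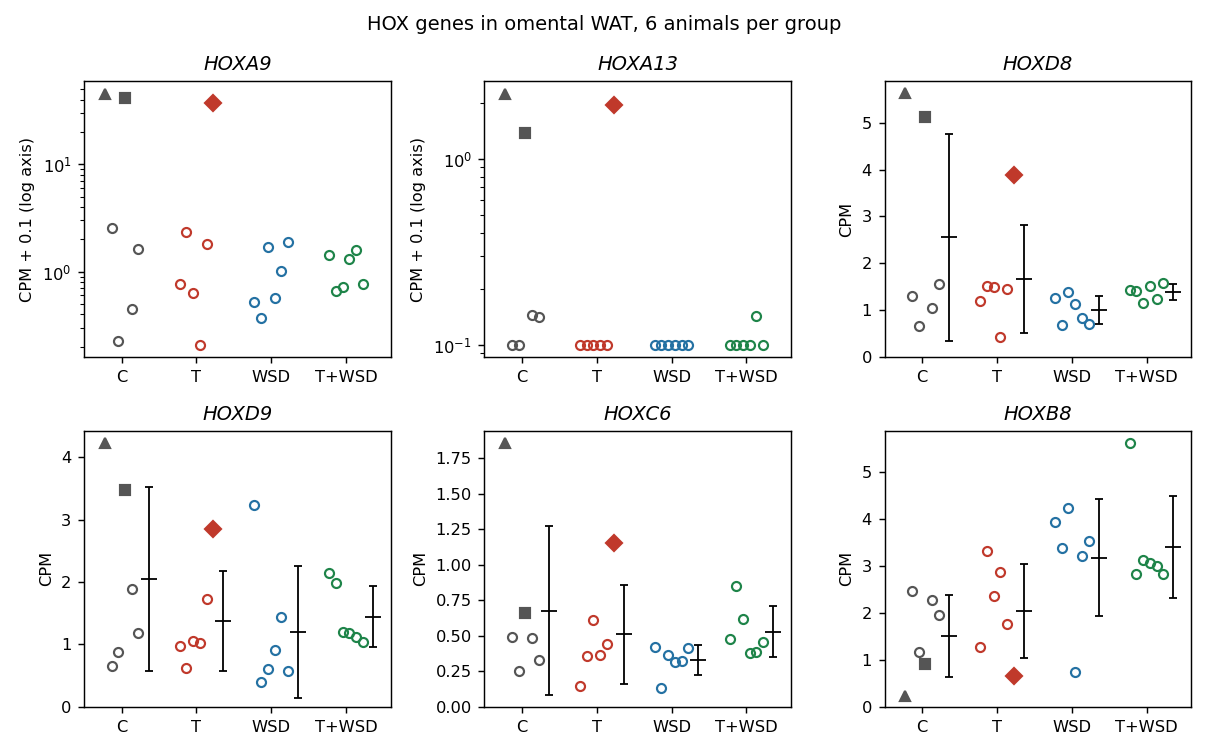
CPM of 6 HOX genes by group, 1 symbol per animal (6 per group). Filled symbols mark *C* replicate 1 (triangle), *C* replicate 4 (square) and *T* replicate 18 (diamond), black bars give the mean ± SD, and HOXA9 and HOXA13 are on a log axis after adding 0.1 CPM, with no bars. The animals with filled symbols were picked by their HOXA9. They lie above all open ones for HOXA9, HOXA13 and HOXD8 and low for HOXB8.

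The same animals also differed in genes outside the family. BARX1, a homeobox factor of the stomach mesenchyme, had 3, 5 and 6 counts (0.169, 0.206 and 0.188 CPM) in *C* replicate 1, *C* replicate 4 and *T* replicate 18, and 20.002 to 50.95 CPM in the other 21. It was found by a search made after these animals had been seen, so it carries no test. Their mesothelial sums were the 3 highest of 24, at 40515, 10374 and 18369 CPM, and their macrophage sums were the 3 lowest, at 171, 345 and 287 CPM. Their sums of the T and NK cell list were also the 3 lowest, at 15.8, 29.2 and 24.4 CPM. The part of these cell type markers in the HOX levels was not tested. The calls, and the differences between *WSD* and *C* at an unadjusted p under 0.05, are given below with and without them.

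**Figure D2:**
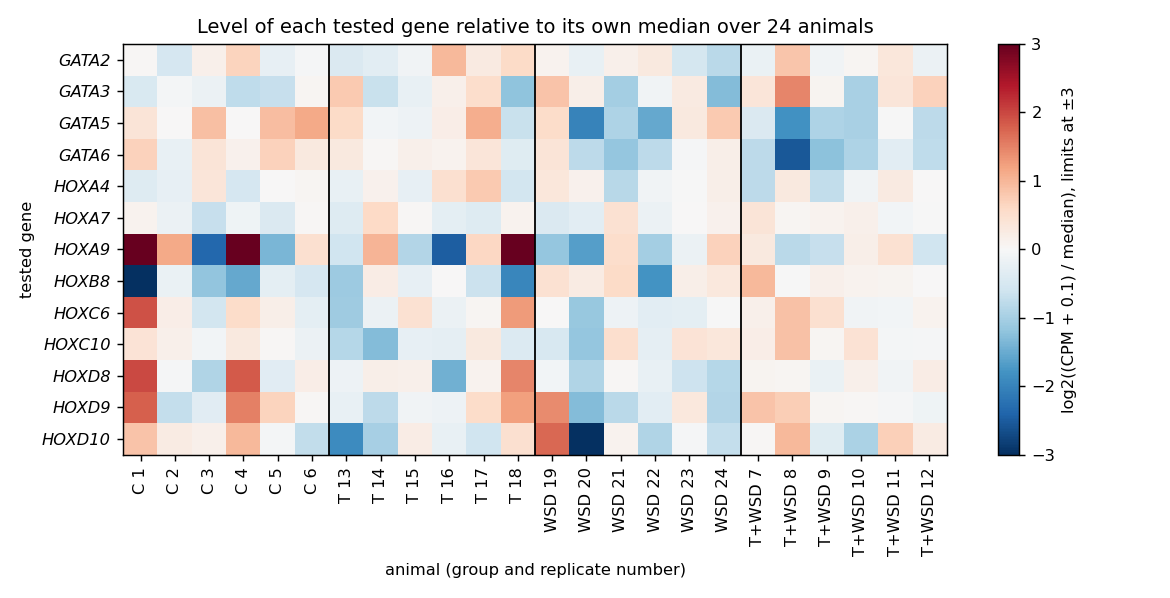
Level of each of the 13 genes in each of 24 animals, as log2 of (CPM + 0.1) relative to that gene's median over all animals (color limits at ±3). *C* 1, *C* 4 and *T* 18 share high HOXA9, HOXD8 and HOXD9 and low HOXB8, and GATA5 and GATA6 are lowest among *WSD* and *T* + *WSD* animals.

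Spread between the control animals followed this pattern. The coefficient of variation over the 6 *C* animals was lowest for HOXC10, a gene known from subcutaneous and lower-body fat, at 17.03%, and for HOXA7, a trunk gene, at 19.5%. It was 23.3% for GATA6, 23.5% for HOXA4, 29.7% for GATA2 and 33.3% for GATA5. Among the 13 members with results it was highest for HOXA9 at 143.9%, HOXC6 at 87.5%, HOXD8 at 86.3% and HOXD9 at 71.6%. The rare and untested HOXA13 was higher still (156.4%). The untested HOXD11 was at 0 in 5 of the 6 *C* animals, which by itself fixes its coefficient at 244.9%, so it is not ranked. Over the 4 groups together, edgeR's biological coefficient of variation was 1.26 for HOXA9, higher than in 99.3% of tested genes, and 0.212 for HOXA7, higher than in 47.7%. HOXC6 and GATA3 had at most 37 and 16 counts in any library, so counting error adds to their spread.

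The effect of both treatments together was read from *T* + *WSD* against *C*. By edgeR, 3 of these 13 members passed both thresholds, against 10% of the 15207 genes tested, and all 3 were lower (GATA6, GATA5 and HOXA9), a direction called in 5.29% of genes. The median log2 fold change of the 13 was -0.18, and that of all genes tested was -0.04. At an unadjusted p under 0.05 there were 4 members, where 32.1% of all genes passed. DESeq2 called 4 members (10.9% of its genes), adding HOXB8 as higher.

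GATA6 (ENSMMUG00000010944), a factor known in visceral mesenchyme, mesothelium and peritoneal macrophages, had the smallest p of the members. Its level was 31.5 to 59.4 CPM in *C* (median 46.2), 28.3 to 46.9 in *T* (median 40.2), 16.3 to 48.3 in *WSD* (median 28.5) and 6.22 to 29.45 in *T* + *WSD* (median 20.3). All 6 *T* + *WSD* animals lay below all 6 *C* animals, which 4.12% of tested genes did, whereas *WSD* overlapped *C* and *T*. Ordered from the highest, the group means (± SD, n = 6 each) were those of *C* (47.1 ± 10.99 CPM), *T* (39.7 ± 6.54 CPM), *WSD* (30.7 ± 12.9 CPM) and *T* + *WSD* (18.9 ± 7.69 CPM). The log2 fold change of *T* + *WSD* against *C* was -1.29 (SE 0.27, edgeR adjusted p = 0.00539), and -1.24 (adjusted p = 0.0316) without the 3 animals. In that order of means, *T* did not differ from *C* (log2 fold change -0.25, edgeR adjusted p = 0.822), nor *T* + *WSD* from *WSD* (-0.67, adjusted p = 0.169), beyond the spread between animals. *T* + *WSD* was lower than *T* (log2 fold change -1.04, SE 0.27, edgeR adjusted p = 0.0293), and 5 of its 6 animals lay below all of *T*.

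GATA6 moved together with the mesothelial list. With the mean of that list as a covariate, the log2 fold change of GATA6 in *T* + *WSD* against *C* was -0.40 (SE 0.33, edgeR adjusted p = 0.9997), and across all genes that fit called 0. The mean of the list was itself lower in *T* + *WSD* (4.50 ± 0.86 log2 CPM) than in *C* (6.57 ± 0.60), so covariate and group overlap. Within the 16 libraries outside the batch it was -1.14 (edgeR adjusted p = 0.0607), and within the 8 inside it was -1.66 (adjusted p = 0.366), each with fewer animals. The part of the mesothelial genes in the lower GATA6 was not tested.

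GATA5 (ENSMMUG00000017584), a relative of GATA4 and GATA6, followed the same order of group means. Its level was 5.24 to 11.53 CPM in *C* (median 8.33), 3.25 to 11.2 in *T* (median 5.48), 1.22 to 9.02 in *WSD* (median 4.56) and 1.41 to 5.20 in *T* + *WSD* (median 2.84). The highest *T* + *WSD* animal lay just under the lowest *C* animal, so all 6 were below all of *C*, while *T* and *WSD* overlapped *C*. The log2 fold change of *T* + *WSD* against *C* was -1.35 (SE 0.41, edgeR adjusted p = 0.0290). It was -1.51 (edgeR adjusted p = 0.0544) without the 3 animals, -0.60 (adjusted p = 0.9997) with the mesothelial covariate and -1.42 (adjusted p = 0.125) outside the library batch. Leaving out 1 animal at a time ended the call in 6 of 12 fits, with log2 fold changes from -1.56 to -1.22.

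GATA4, a factor of heart, gut and gonadal mesoderm, was too rare to be tested, with 72 counts in all. It had 0 to 17 counts in *C*, 1 to 7 in *T*, 0 to 3 in *WSD* and 0 to 2 in *T* + *WSD*. The counts of 17 and 14 were those of *C* replicates 4 and 1, and the 7 was that of *T* replicate 18. As *WSD* and *T* + *WSD* were at or under 3 counts in every library, no fold change is given. Without a filter its edgeR adjusted p in *T* + *WSD* against *C* was 0.0598, and DESeq2 gave 0.0513.

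GATA2, which restrains adipocyte differentiation and acts in endothelium and blood, did not differ beyond the spread between animals. It was 8.54 to 19.5 CPM in *C* (median 12.1), 8.97 to 23.8 in *T* (median 12.9), 6.86 to 14.99 in *WSD* (median 11.7) and 10.5 to 21.8 in *T* + *WSD* (median 11.97). The groups overlapped throughout, and the log2 fold change of *T* + *WSD* against *C* was 0.09 (SE 0.25, edgeR adjusted p = 0.858). GATA3, the other GATA gene of preadipocytes, had 2 to 16 counts per library, and its log2 fold change was 0.88 (SE 0.52, edgeR adjusted p = 0.2501).

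**Figure D3:**
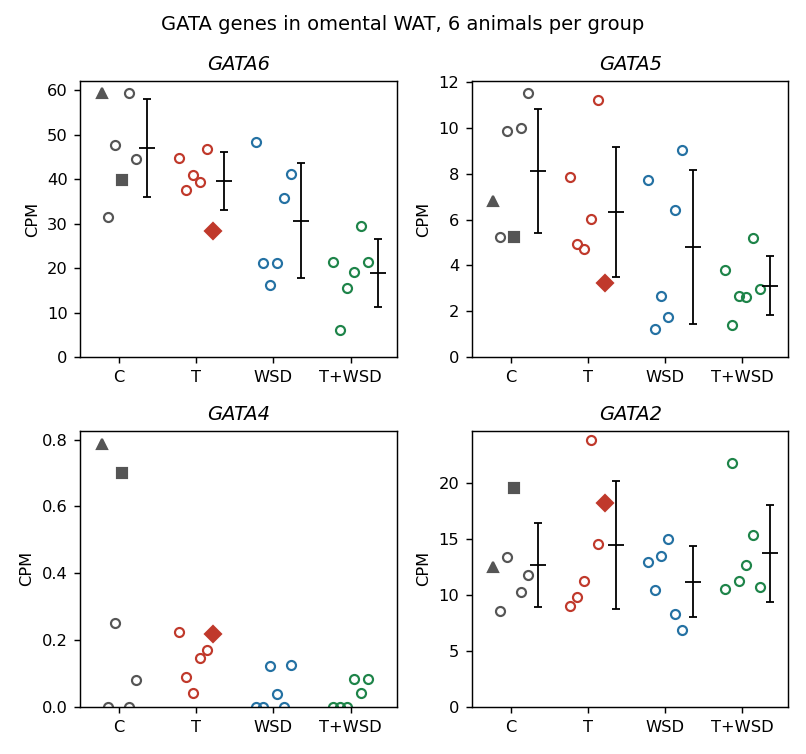
CPM of GATA6, GATA5, GATA4 and GATA2 by group, 1 symbol per animal, with black bars for mean ± SD (none for GATA4) and filled symbols for *C* replicate 1 (triangle), *C* replicate 4 (square) and *T* replicate 18 (diamond). For GATA6 and GATA5 all *T* + *WSD* animals lie below all *C* animals, GATA4 is under 1 CPM throughout, and GATA2 overlaps between groups.

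The HOXA9 difference rested largely on *C* replicates 1 and 4, since *T* replicate 18 is in neither group of this comparison. The 3 animals were picked by their high HOXA9, so a smaller fold without them follows from that choice and is no test. HOXA9 was 0.126 to 45.4 CPM in *C* (median 1.99), 0.109 to 36.9 in *T* (median 1.18), 0.271 to 1.79 in *WSD* (median 0.699) and 0.565 to 1.505 in *T* + *WSD* (median 0.943). The *T* + *WSD* animals lay inside the range of *C*. The log2 fold change of *T* + *WSD* against *C* was -3.91 (SE 1.30, edgeR adjusted p = 0.0416), and 0.00 to 2 decimals (adjusted p = 0.998) without the 3 animals, where the 4 remaining *C* animals had a mean of 1.11 CPM and *T* + *WSD* 0.982. The call was also lost without *C* replicate 1 alone (log2 fold change -3.17), without *C* replicate 4 alone (-3.31) and without any 1 of the 6 *T* + *WSD* animals (-4.09 to -3.79).

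Other HOX differences in *T* + *WSD* against *C*, for which edgeR made no call, changed sign when these animals were left out. For the genes named here *C* replicates 1 and 4 ranked between 1st and 4th of 24 from the highest. Leaving them out lowers the *C* mean and so raises the fold, which is a description and no test. HOXD8 had a log2 fold change of -0.89 (edgeR adjusted p = 0.200) with all animals and 0.31 (adjusted p = 0.619) without the 3. HOXD9 changed from -0.58 to 0.25, HOXC6 from -0.44 to 0.42 and HOXD10 from -0.18 to 0.30, with the smallest of these adjusted p at 0.443 before and 0.526 after. GATA6 and GATA5 kept their size, as given above.

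**Figure D4:**
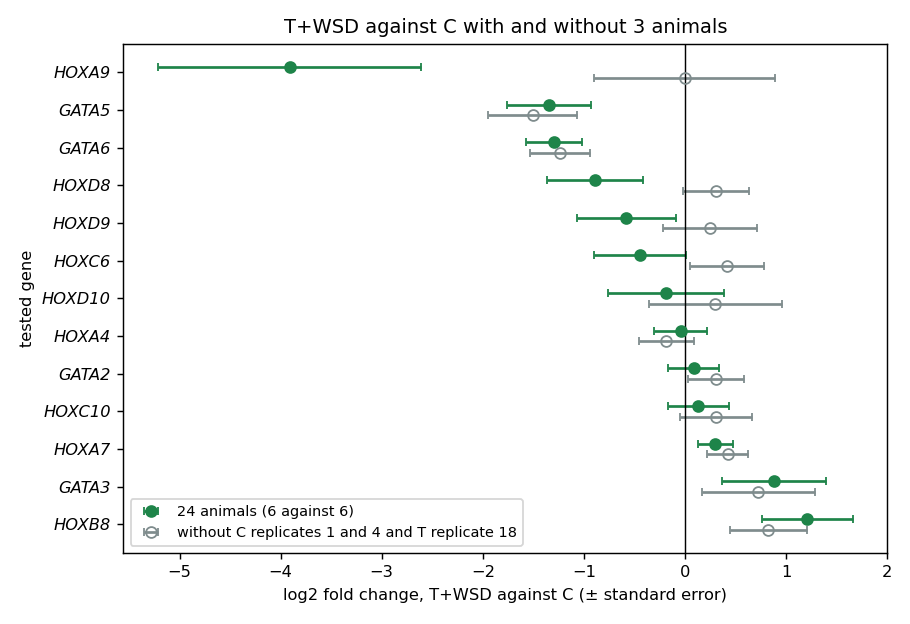
Log2 fold change (± standard error) of the 13 genes in *T* + *WSD* against *C*, with all animals (filled, 6 against 6) and without *C* replicates 1 and 4 and *T* replicate 18 (open). HOXA9 moves from -3.91 to 0, and HOXD8, HOXD9, HOXC6 and HOXD10 change sign, while GATA5 and GATA6 stay below -1.

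HOXB8 (ENSMMUG00000020868) was the 1 member on which edgeR and DESeq2 differed in *T* + *WSD* against *C*. It was 0.225 to 2.46 CPM in *C* (median 1.57), 0.656 to 3.32 in *T* (median 2.06), 0.750 to 4.24 in *WSD* (median 3.46) and 2.83 to 5.61 in *T* + *WSD* (median 3.04). All 6 *T* + *WSD* animals lay above all 6 *C* animals, which 3.49% of tested genes did, and 5 of 6 *WSD* animals did so too. The log2 fold change of *T* + *WSD* against *C* was 1.21 (SE 0.45) and missed the threshold in edgeR (adjusted p = 0.0666) but passed it in DESeq2 (adjusted p = 0.0337). Without the 3 animals, 2 of which are low controls, it was 0.83 (edgeR adjusted p = 0.187), and with the mesothelial covariate 0.40 (adjusted p = 0.9997).

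For the remaining HOX genes neither tool made a call. HOXA7 was 8.13 to 14.1 CPM in *C* (median 11.7) and 12.4 to 17.2 in *T* + *WSD* (median 13.8), with overlap and a log2 fold change of 0.30 (SE 0.17, edgeR adjusted p = 0.245). HOXA4, also a front-to-trunk gene, was 2.06 to 3.83 CPM in *C* (median 2.72) and 1.67 to 3.67 in *T* + *WSD* (median 2.87), with a log2 fold change of -0.04 (SE 0.26, edgeR adjusted p = 0.937). HOXC10 was 0.899 to 1.41 CPM in *C* and 0.989 to 1.98 in *T* + *WSD*, and its log2 fold change was 0.13 (edgeR adjusted p = 0.856). HOXD10 was the most variable of the remaining genes, from 0 to 2.96 CPM within *WSD*.

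The diet alone was read from *WSD* against *C*, and testosterone alone from *T* against *C*. Both use the same *C* animals as the comparison above, so they are not independent of it. In *WSD* edgeR called 0 of 13 members and 0% of all genes, with 5 members at an unadjusted p under 0.05 (18.5% of genes), and DESeq2 called 1 (1.58% of its genes), HOXA9 (adjusted p = 0.0286). For HOXA9 the edgeR log2 fold change was -3.95 (adjusted p = 0.148), and -0.08 without the 3 animals, which were picked by their HOXA9. The other 4 had edgeR log2 fold changes of -1.35 for HOXD8 (adjusted p = 0.167), 1.10 for HOXB8 (adjusted p = 0.203), -0.62 for GATA6 (adjusted p = 0.223) and -0.997 for HOXC6 (adjusted p = 0.254). Without the 3 animals these became -0.17 for HOXD8 (edgeR adjusted p = 0.855), 0.71 for HOXB8 (adjusted p = 0.471), -0.59 for GATA6 (adjusted p = 0.453) and -0.15 for HOXC6 (adjusted p = 0.956), so most of the HOXD8 and HOXC6 differences went with *C* replicates 1 and 4. These controls had been seen to be high in HOXD8 and HOXC6 and low in HOXB8, so the smaller folds of those genes are no test. In *T* edgeR called 0 of 13 members and 0% of genes, DESeq2 called 0 (0.029% of its genes), and 0 members had an unadjusted p under 0.05 (8.63% of genes).

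Adding testosterone to the diet was read from *T* + *WSD* against *WSD*. Here edgeR called 0 of 13 members (0.815% of genes) and DESeq2 called 0 (2.62%). GATA6 was the 1 member with an unadjusted p under 0.05 (20% of genes), at a log2 fold change of -0.67 (edgeR adjusted p = 0.169). Adding the diet to testosterone was read from *T* + *WSD* against *T*, where edgeR and DESeq2 each called 1 of 13 members, GATA6 (3.77% of genes by edgeR, 1.43% as lower, and 6.1% by DESeq2), and 4 had an unadjusted p under 0.05 (25.9% of genes). Without the 3 animals GATA6 was still called there (-1.11, edgeR adjusted p = 0.0321). That call was lost in 5 of 12 fits that each left out 1 animal, and with the mesothelial covariate the log2 fold change was -0.32 (edgeR adjusted p = 0.840). For the interaction of testosterone and diet, at an adjusted p under 0.1, edgeR called 0 of 13 members (0.809% of genes), with 0 at an unadjusted p under 0.05 (13.5% of genes), and DESeq2 called 0 (2.77%). Among the 13, the smallest interaction p was that of HOXD8 (edgeR adjusted p = 0.512, and 0.776 without the 3 animals). The interaction of GATA6 was -0.42 on the log2 scale (SE 0.38, edgeR adjusted p = 0.703), so a departure from additive effects was not detected.

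Between animals of 1 group, GATA6 was also correlated with the mesothelial list. After centring within groups, Pearson's r of GATA6 with the mean of the 14 rows was 0.68 over 24 animals (permutation within groups, p = 0.00402, Benjamini-Hochberg adjusted over the tested members p = 0.0488), and Spearman's rho was 0.51 (permutation adjusted p = 0.0821). Without *T* + *WSD* replicate 8 and *WSD* replicate 21, the 2 animals farthest from the median of that mean, r was 0.39, so the relation rests in part on them. It was 0.45 in the 16 libraries outside the batch and 0.91 in the 8 inside it. These subset values kept the centring over all 24 animals. Centred again within the 16 libraries alone, r was 0.40 (permutation adjusted p = 0.686). The other member under the threshold was HOXA9 (permutation adjusted p = 0.0488), whose values fall into separate clusters, so no pooled r is given. GATA5 had an r of 0.38 (permutation adjusted p = 0.251) and HOXB8 an r of -0.42 (permutation adjusted p = 0.155). Each gene and the list come from the same libraries, so shared scaling is part of these values.

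**Figure D5:**
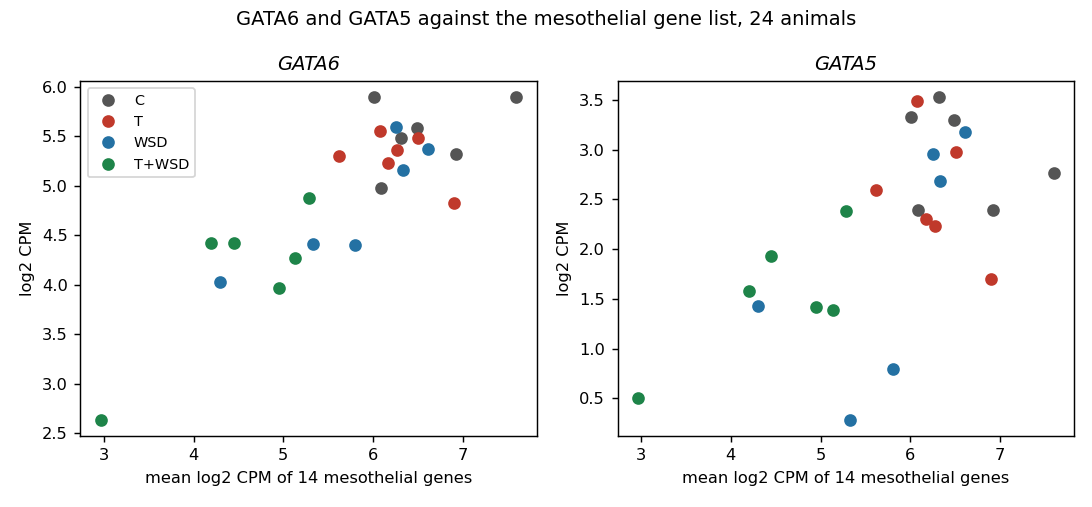
Log2 CPM of GATA6 (left) and GATA5 (right) against the mean log2 CPM of the 14 mesothelial rows, 1 point per animal (24), colored by group. *T* + *WSD* animals lie at the low end of both axes, and the lowest point of GATA6 is *T* + *WSD* replicate 8.

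Partners and regulators of these factors were read from lists in the same *T* + *WSD* against *C* fit. Of 9 HOX cofactors of the TALE homeobox class, which bind DNA beside HOX proteins, 2 were lower and 0 higher, where 5.29% of all genes were called lower and 4.72% higher. PKNOX1 had a log2 fold change of -0.62 (edgeR adjusted p = 0.00717) and MEIS1 of -0.64 (adjusted p = 0.0465). Of 5 GATA cofactors, 1 was lower, ZFPM1, which binds GATA proteins and modifies their activity, at -1.001 (edgeR adjusted p = 0.0281). None of 15 chromatin regulators of HOX clusters (Polycomb and Trithorax class) passed both thresholds, and the smallest p was that of RING1 at -0.36 (edgeR adjusted p = 0.00539). Of 8 other depot factors tested, 2 were higher, the T-box factor TBX15 at 2.54 (edgeR adjusted p = 0.0286), which is known from subcutaneous fat, and the nuclear receptor NR2F2 at 0.63 (adjusted p = 0.0253). Medians were -0.24 for the HOX cofactors, -0.32 for the GATA cofactors, -0.18 for the chromatin regulators and -0.21 for the other depot factors, against -0.04 for all genes.

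Those 5 partner and depot genes also moved with the settings above. With the mesothelial covariate edgeR called none of them, with an adjusted p of 0.9997 for each and a log2 fold change of 0.11 for MEIS1. Without the 3 animals PKNOX1 was still called (-0.60, edgeR adjusted p = 0.0420), while ZFPM1 (-1.07, adjusted p = 0.0606), MEIS1 (-0.51, adjusted p = 0.124), TBX15 (2.05, adjusted p = 0.136) and NR2F2 (0.52, adjusted p = 0.137) were not. None of the 5 was called in the libraries outside the batch, where the smallest edgeR adjusted p was 0.0811 for PKNOX1. With the batch as a covariate the call of MEIS1 was lost (edgeR adjusted p = 0.0538). DESeq2 did not call PKNOX1, as its log2 fold change of -0.58 was under the fold threshold. Of 12 fits that each left out 1 animal, edgeR called MEIS1 in 4, ZFPM1 in 8, NR2F2 and TBX15 in 9 each and PKNOX1 in 10. In *WSD* and in *T* against *C*, edgeR called 0 genes of these 4 lists, where it called 0% of all genes.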

How the data were processed

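Total RNA of omental biopsies was made into ribosome-depleted libraries, 1 per animal, and read from a single end. Per the submitters' processing notes and the study's methods, reads were checked with FastQC 0.11.5, trimmed with Trimmomatic 0.36 and aligned to rheMac8 with STAR 2.5.2b. The authors deposited raw counts per gene, without normalization, and used DESeq2 1.18.1 for their own tests. The counting tool and its strand setting are not given in the sources used here. Groups and replicate numbers came from the sample labels.

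Here, symbols came from the gene name table (17621 identifiers) and, where it had none, the study's tables (230). Counts were scaled by TMM and tested in edgeR 4.0.16 (R 4.3.3) by the two-sided quasi-likelihood F-test (robust=TRUE, legacy=TRUE) in 1 fit of 24 animals, after filterByExpr (minimum count 10, minimum total 15), with Benjamini-Hochberg adjustment over 15207 genes. The standard error is the log2 fold change divided by the root of F. A call needed an adjusted p below 0.05 together with a fold change above 1.5, or an adjusted p under 0.1 for the interaction. Correlations used log2 CPM with a prior count of 2 and 100000 permutations within groups. P values of the fits weigh a difference against the spread between these animals. Those of the correlations come from permuting animals within groups. Of the tested members 1 is not reported here, and no count of called members includes it. Full statistics are given for members called by edgeR or DESeq2 in a comparison, named by the study, or correlated with the mesothelial list. Members and gene lists were chosen with earlier results of these data known. Alternatives included DESeq2 1.42.0, other scalings and filters, a mesothelial or library batch covariate and leaving out each animal. The fit and the permutation test were tested on simulated data. No sequence or gene length was used, and coordinates served only for the order and overlaps of genes in the RefSeq annotation. Methylation data were not analysed here.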

Additional observations from a re-analysis of the deposited data

Results flagged for a closer look

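Among 56 groups of 6 animals (14 tested genes in 4 groups), 3 held an animal far from the others by Dixon's test on log2 CPM. Chance flags about 1 in 20 groups, and 3 of 56 is close to that rate. HOXB8 was 0.750 CPM in *WSD* replicate 22, where the other 5 *WSD* animals were 3.21 to 4.24 CPM. HOXB8 was 5.61 CPM in *T* + *WSD* replicate 7, a library of the batch, where the other 5 were 2.83 to 3.13 CPM. HOXC6 was 0.136 CPM in *WSD* replicate 20, also a library of the batch, which is 1 count, where the other 5 were 0.316 to 0.422 CPM.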

How the results depend on the processing

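No called member reversed its direction under the alternatives run, and the HOX genes without a call that changed sign are named above. Of the called partner and depot genes, MEIS1 changed sign with the mesothelial covariate (log2 fold change 0.11). Of the 3 members called in *T* + *WSD* against *C*, 1 was called with at least 10 counts in every animal, 0 with the mesothelial covariate, 0 in the 16 libraries outside the batch, 0 in the 8 inside it, and 1 without *C* replicates 1 and 4 and *T* replicate 18 (the last of these settings and the fit inside the batch were chosen after seeing the data). Leaving out 1 animal at a time gave 1 to 4. The call in *T* + *WSD* against *T* (1 member) became 0 with the mesothelial covariate, 0 outside and 0 inside the batch, and 0 to 1 leaving out 1 animal. In *WSD* against *C* DESeq2 called 1 where edgeR called 0, and leaving out 1 animal gave 0 to 0, as it did in *T* against *C*, in *T* + *WSD* against *WSD* and for the interaction. The 2 members correlated with the mesothelial list became 0 with a prior count of 0.5, 0 with RLE scaling, 0 without WT1 and BNC1 in the list, 0 outside the batch and 0 to 3 leaving out 1 animal. Without a filter on low counts HOXA9 was not called (edgeR adjusted p = 0.0760). With at least 10 counts in every animal HOXA9 and GATA5, with minimum counts of 2 and 5, were not tested. The fits inside and outside the batch and the leave-one-out fits have fewer animals. Otherwise the cause was not tested. Over all genes, *T* + *WSD* against *C* called 1522 of 15207 tested, and 1083 of 11401 with at least 10 counts in every animal. It called 522 of 15461 without the 3 animals, 78 of 15448 outside the batch and 0 of 13799 inside it. With the mesothelial covariate it called 0 of 15207, and leaving out 1 animal gave 900 to 1790 genes. *T* + *WSD* against *T* called 574 of 15207 genes, 308 of 15448 outside the batch and 0 of 13799 inside it. There the covariate gave 0 of 15207, and leaving out 1 animal gave 238 to 738. GATA6 was called in *T* + *WSD* against *C* in each of the 12 fits that left out 1 animal, with a log2 fold change from -1.46 to -1.12. No paired analysis was possible because the groups share no replicate numbers in the labels. Genes with few counts, such as GATA3, GATA4, HOXC6 and HOXD11, are limited by depth.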

Other observations

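The 3 animals with high HOXA9 shared a wider set of transcripts. They held the 3 highest values of 195 of the 15207 tested genes (1.28%) and the 3 lowest of 121 (0.796%). This search was made after the animals had been seen, so it is a description with no test, and the gaps were measured on log2 of CPM plus 0.1. Among genes with a symbol, the widest gaps on the high side after HOXA9 were those of C4BPA and C4BPB, the chains of a plasma inhibitor of complement. C4BPA was 213, 112 and 68.8 CPM in *C* replicate 1, *C* replicate 4 and *T* replicate 18, and 0.208 to 12.9 CPM in the other 21 animals. C4BPB was 20.5, 7.06 and 8.13 CPM, and at most 1.43 in the others. NXPH2, a neurexophilin, was 7.47 to 36.1 CPM in the 3 and at most 2.49 in the others. FOXP2, a forkhead factor, was 21.1 to 57.6 CPM and at most 7.48 in the others. NKX2-3, a homeobox factor of gut and spleen mesoderm, was 4.22 to 6.15 CPM and at most 1.90 in the others.

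On the low side, BARX1 had by far the widest gap, as given above. ASXL3, a relative of Polycomb group proteins, had 1 count in each of the 3 and 0.407 to 6.22 CPM in the others. The chemokine CXCL14 was 1.46 to 2.75 CPM against 5.01 to 27.7 CPM. ITGAX, an integrin chain of dendritic cells and macrophages, was 4.05 to 5.53 CPM against 9.95 to 149.8 CPM, and MARCO, a macrophage scavenger receptor, was 0.0562 to 0.281 CPM against 0.565 to 160.1 CPM.

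The other cell type lists gave the following counts in *T* + *WSD* against *C* by edgeR. The adipocyte list had 2 of 8 rows higher, the endothelial list 5 of 9 higher, the smooth muscle and pericyte list 2 of 6 higher and the fibroblast and progenitor list 1 of 8 lower. The macrophage (6 rows), T and NK cell (6), mast cell (3) and erythroid (2 tested) lists had 0 called, and 0 of their rows had an unadjusted p under 0.05 in that comparison. Over all genes tested, 4.72% were called higher, 5.29% lower, and 32.1% had an unadjusted p under 0.05.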
